A study of Bos taurus with 4 samples.

Results

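AP-1 is a transcription factor built from pairs of FOS and JUN family proteins, which hold each other through a leucine zipper and bind DNA through a neighbouring basic region. FOS needs a JUN protein as its partner, whereas JUN, JUNB and JUND can also pair among themselves. ATF3 belongs to the related ATF/CREB family, pairs with JUN proteins and is induced by many kinds of stress. In skeletal muscle, as in most tissues, FOS, JUN, JUNB and ATF3 are immediate-early genes, whose mRNA is short-lived and appears soon after exercise, stretch or injury, while JUND mRNA is known as the more steadily present one. The mRNA signals of these 5 genes (FOS, JUN, JUNB, JUND and ATF3) are described here in bulls of a beef and a dairy breed, in the semitendinosus, a muscle of the hind leg.

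Limousin bulls (LIM, a beef breed) and Holstein-Friesian bulls (HF, a dairy breed, the reference) were slaughtered at 15 months, and total RNA was prepared from a piece out of the middle of the muscle, trimmed of fat and connective tissue. Each of 4 two-colour bovine microarrays set the RNA of 1 LIM bull, in red (Cy5), against that of 1 HF bull, in green (Cy3). Each array held another pair, giving 4 bulls per breed, measured as whole-muscle RNA. The dyes were never exchanged, which means that the effects of dye and breed cannot be told apart, and the values below belong to the channel labelled LIM and the channel labelled HF. All ratios are LIM over HF by the dye labels, a direction opposite to the one the study gives for the measured genes that its abstract names. The abstract names 14 genes, of which 13 were measured here. All 13 ran the other way after loess and 11 after median centring (not CTSD and FHL3). Other genes that the study lists were not counted. The study reports its direction also by qPCR for some of these genes, and by Western blot for the myostatin protein. Neither measure was analysed here. Whether the dye labels are exchanged was not tested. If they are, every sign below turns, high and low ranks and the names of the channels change places, and the sizes stay.

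The 5 genes were found through the RefSeq accession of each spot, and they were chosen by the log2 ratios that these same arrays had shown, so their ratios are a description and no test is given for them. Each gene had 1 probe, printed on 2 spots, which makes 5 of the 7788 genes that could be named and 10 of the 42990 spots for bovine transcripts. All 40 readings of the 10 spots on 4 arrays were well above background in both channels, and none was saturated or marked as non-uniform. On 1 array the 2 spots of a gene differed by a median of 0.066 in log2 ratio and by at most 0.28, for ATF3 on array 1. In bulk tissue, fewer cells of a type and less RNA per cell cannot be told apart.

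By the dye labels ATF3 had the lowest mean ratio of all 6376 named genes with a probe above background. Counted from the lowest, FOS had rank 3, JUN rank 18, JUND rank 27 and JUNB rank 133. Levels are given below as log2 signal per channel after dye normalization, on a scale on which 1 unit is a doubling, and levels of different genes are not set against each other because each probe binds with its own strength.

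ATF3 (NCBI gene 515266), the stress-induced factor, had levels of 9.28, 8.80, 8.38 and 9.18 in the LIM channel of arrays 1 to 4. In the HF channel of the same arrays it had 14.79, 13.25, 10.15 and 14.48. The highest LIM bull lay 0.86 below the lowest HF bull, so the channels did not overlap. The log2 ratios were -5.50, -4.45, -1.77 and -5.31, with a mean of -4.26 ± 1.72 (SD, n = 4), which is 19.1-fold lower in the LIM channel. The fold per array ran from 3.42 on array 3 to 45.3 on array 1.

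FOS (NCBI gene 280795), the subunit that needs a JUN protein as its partner, had LIM levels of 9.57, 9.28, 8.63 and 9.74. Its HF levels were 13.33, 13.19, 10.42 and 14.17. Here too every HF level was above every LIM level, with a gap of 0.68. The log2 ratios of -3.75, -3.91, -1.78 and -4.43 gave a mean of -3.47 ± 1.16 (SD, n = 4), or 11.1-fold lower in the LIM channel. Array 3 held the smallest FOS difference, 3.44-fold, and array 4 the largest, 21.6-fold.

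JUN (NCBI gene 280831), the main partner of FOS, had LIM levels of 10.37, 10.82, 9.84 and 10.54 and HF levels of 12.84, 12.70, 11.57 and 12.03. The channels were 0.75 apart at their nearest. Its log2 ratios of -2.47, -1.88, -1.73 and -1.49 had a mean of -1.89 ± 0.42 (SD, n = 4), which is 3.72-fold lower in the LIM channel. JUN had the smallest SD of the ratio among the 5 genes, and its smallest difference was on array 4 (2.81-fold) rather than array 3 (3.32-fold).

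JUND (NCBI gene 517192), the more constant JUN protein, had nearly the same LIM level on every array, 9.68, 9.49, 9.53 and 9.67. Its HF levels were 11.47, 11.39, 10.31 and 11.60, with a gap of 0.63 between the channels. The ratios were -1.79, -1.90, -0.78 and -1.93 and the mean -1.60 ± 0.55 (SD, n = 4), or 3.03-fold lower in the LIM channel. Without array 3 the mean was -1.87 ± 0.072 (SD, n = 3), so that this array alone made most of the spread of JUND.

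JUNB (NCBI gene 514246), a JUN protein that activates less strongly than JUN and can oppose it, was the exception. Its LIM levels were 9.78, 8.59, 8.82 and 8.89 and its HF levels 9.53, 8.94, 9.92 and 11.13, and the channels overlapped. The log2 ratio was 0.25 on array 1, -0.35 on array 2, -1.09 on array 3 and -2.25 on array 4. The mean of -0.86 ± 1.08 (SD, n = 4) was smaller than its own SD, with 3 of 4 arrays below 0. It was -1.23 without array 1 and -0.40 without array 4.

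**Figure D1:**
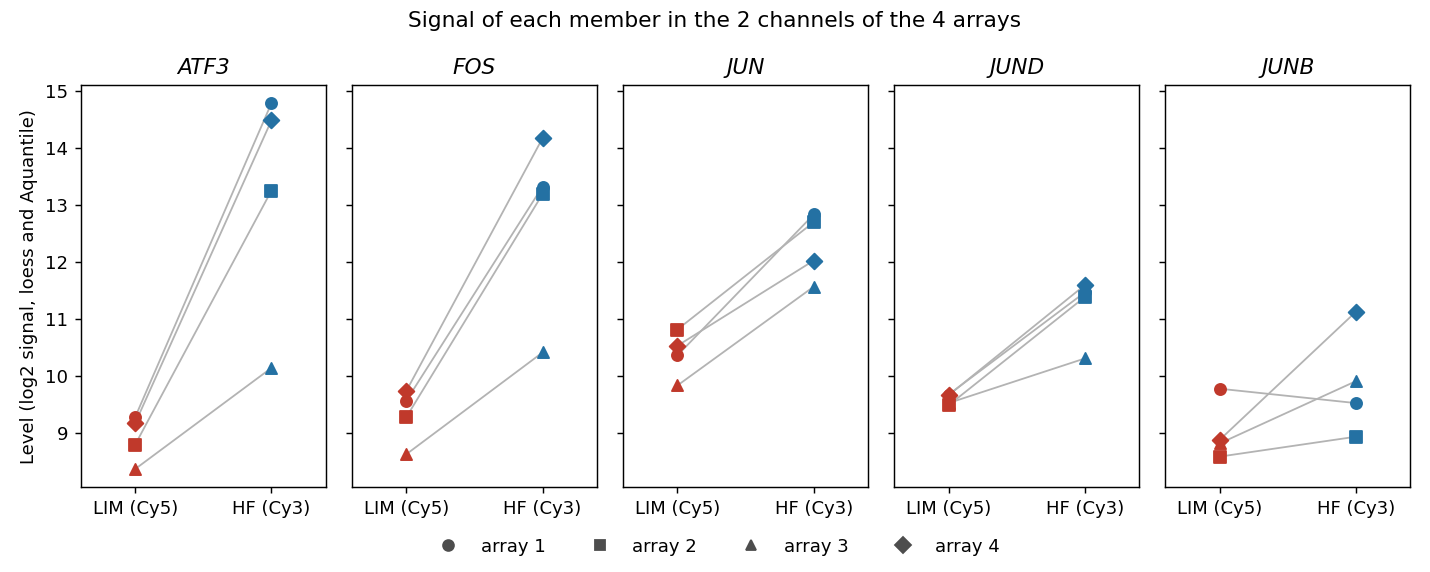
Level of each gene (vertical axis, log2 signal after loess and Aquantile) in the LIM channel (red, Cy5) and the HF channel (blue, Cy3); each symbol is 1 array and grey lines join its channels. For ATF3, FOS, JUN and JUND every HF level is above every LIM level, while those of JUNB overlap.

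Every HF level was above every LIM level for 4 of the 5 genes, against 8.5% of the 6376 named genes. In the fit across all probes described below, 4 of the 5 genes were called lower in the LIM channel at an adjusted p under 0.05, against 3.15% of named genes. Both counts follow from how the genes were chosen, and nothing is read from them.

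**Figure D2:**
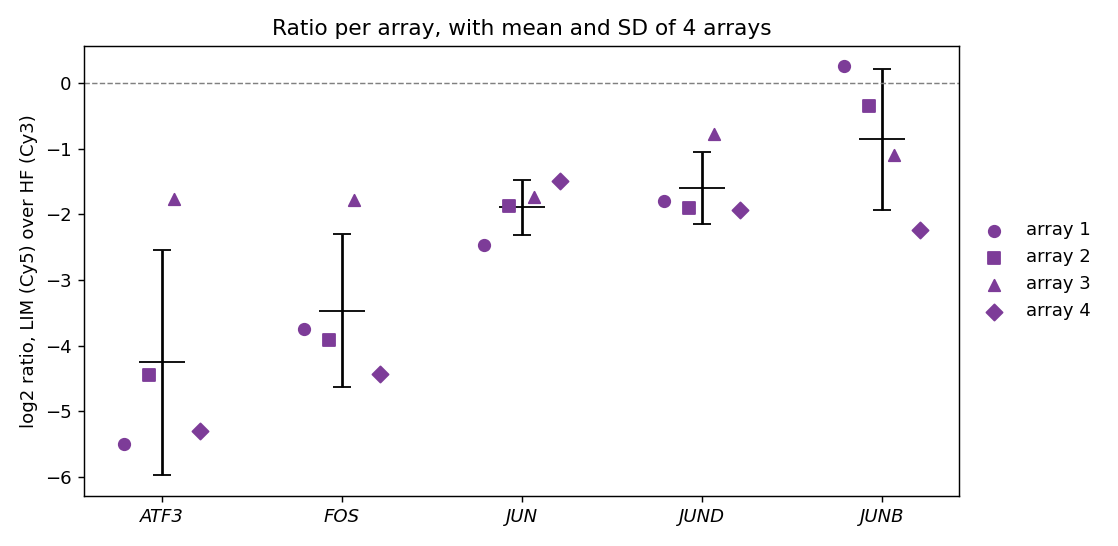
Log2 ratio of the LIM over the HF channel (vertical axis) for the 5 genes in order of their mean; each symbol stands for 1 array, and the bars give mean and SD. All ratios lie below 0 except that of JUNB on array 1 (0.25), and ATF3 and FOS come nearest to 0 on array 3.

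In this order ATF3 minus FOS was -0.79 ± 0.74 on average (log2, SD of the differences within arrays, n = 4), below 0 on 3 of 4 arrays and 0.012 on array 3. FOS minus JUN was below 0 on all 4 arrays (-1.58 ± 1.22), with -0.052 on array 3. JUN and JUND were not separated beyond their spread (-0.29 ± 0.63), each being the lower one on 2 arrays. JUND minus JUNB was -2.04 and -1.55 on arrays 1 and 2 and 0.31 and 0.32 on arrays 3 and 4. The order of the 3 JUN family genes thus changed from array to array, while FOS and ATF3 stayed below all 3 on all 4 arrays. On array 3 the distance from JUN was small, with FOS at -1.78, ATF3 at -1.77 and JUN at -1.73.

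The spread between bulls was larger in the HF channel, most of all for ATF3, FOS and JUND. ATF3 differed 24.9-fold between the highest and the lowest HF level and 1.88-fold among the LIM levels. FOS ranged 13.5-fold in the HF channel and 2.16-fold in the LIM channel, and JUNB 4.56-fold against 2.28-fold. For JUN the ranges were 2.4-fold and 1.97-fold, and for JUND 2.44-fold and 1.14-fold. The SD of the HF levels was larger than that of the LIM levels for each of the 5 genes, by 5.14 times for ATF3, 3.35 for FOS, 6.24 for JUND, 1.77 for JUNB and 1.44 for JUN. The same held for 68.3% of the 12428 probes well above background everywhere, where the median SD was 0.20 in the HF channel and 0.15 in the LIM channel. Of these probes, 96.6% had a smaller ratio of the SDs than ATF3, 90.2% a smaller one than FOS and 52.3% a smaller one than JUN. Breed and dye cannot be told apart in this comparison either.

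**Figure D3:**
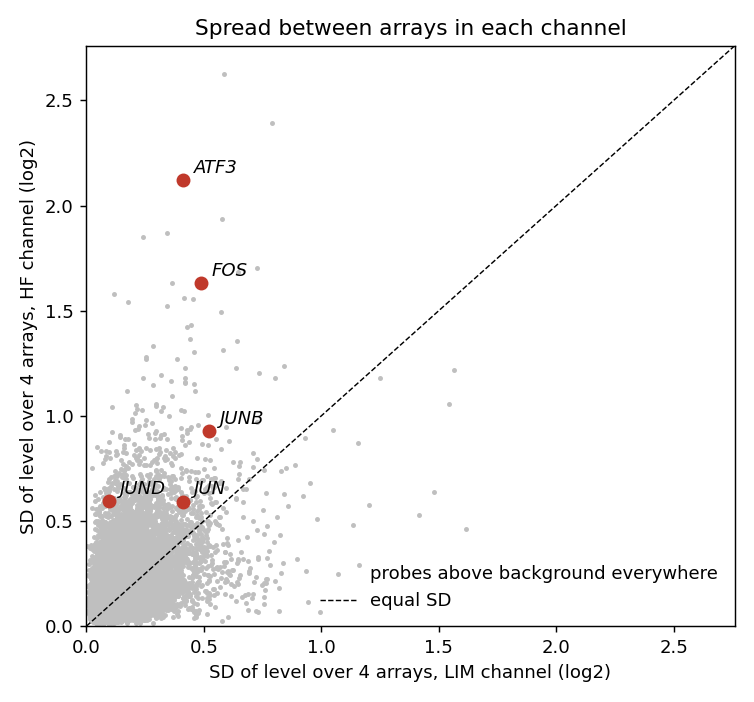
SD over the 4 arrays of the level in the LIM channel (horizontal axis) and in the HF channel (vertical axis), both in log2 units; grey points are the 12428 probes, red points the 5 genes, and the dashed line marks equal SDs. All 5 genes lie above the line, ATF3 and FOS at HF SDs of 2.12 and 1.63.

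Much of this HF spread came from array 3. It had the lowest HF level of the 4 arrays for ATF3, FOS, JUN and JUND, and also the lowest LIM level for ATF3, FOS and JUN. The HF level on array 3 differed from the HF mean by -3.02 for ATF3, -2.36 for FOS, -0.88 for JUND and -0.71 for JUN. For JUNB it differed by 0.035. Whether this belongs to the bull or to the array was not tested. Without array 3 the mean ratio was -5.09 ± 0.56 (SD, n = 3) for ATF3, 34.0-fold lower in the LIM channel, and -4.03 ± 0.35 for FOS, 16.3-fold lower. For JUN it was -1.95 ± 0.49 and for JUNB -0.78 ± 1.3. The SD of the HF levels fell to 0.81 for ATF3, 0.53 for FOS and 0.10 for JUND, and that of JUNB was 1.13. The highest HF level was on array 1 for ATF3 and JUN and on array 4 for FOS, JUNB and JUND, so no single HF bull was highest for all 5 genes.

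Before any dye normalization the red channel was the brighter one, with a median log2 ratio of the probes above background of 1.07, 1.46, 2.02 and 1.49 on arrays 1 to 4. The ratios of the 5 genes therefore rest in part on this correction. Loess, together with the background correction and its offset, moved each of the 20 background-subtracted ratios down by between 0.90 and 1.94. For ATF3 the spots themselves showed the difference on 3 arrays, with mean median brightness of 868 in red and 20609 in green on array 1, 704.5 and 5982 on array 2, and 996 and 14884 on array 4. On array 3 ATF3 read 579.5 in red and 582 in green, and FOS 694 and 682, so that both channels were nearly equal there before the correction. Of the 20 background-subtracted ratios before correction, 14 were below 0, against 19 after loess. Those above 0 were JUNB on arrays 1 to 3 and JUND, JUN and FOS on array 3, at 1.13, 0.20 and 0.0054. Median centring, used instead of loess, gave mean ratios of -3.70 for ATF3, -2.89 for FOS, -1.28 for JUN, -1.02 for JUND and -0.33 for JUNB, and the median of all probes above background was then 0.25, against 0.018 after loess. With this centring JUND was at 0.13 on array 3 and JUNB at 0.29 and 0.21 on arrays 1 and 2.

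**Figure D4:**
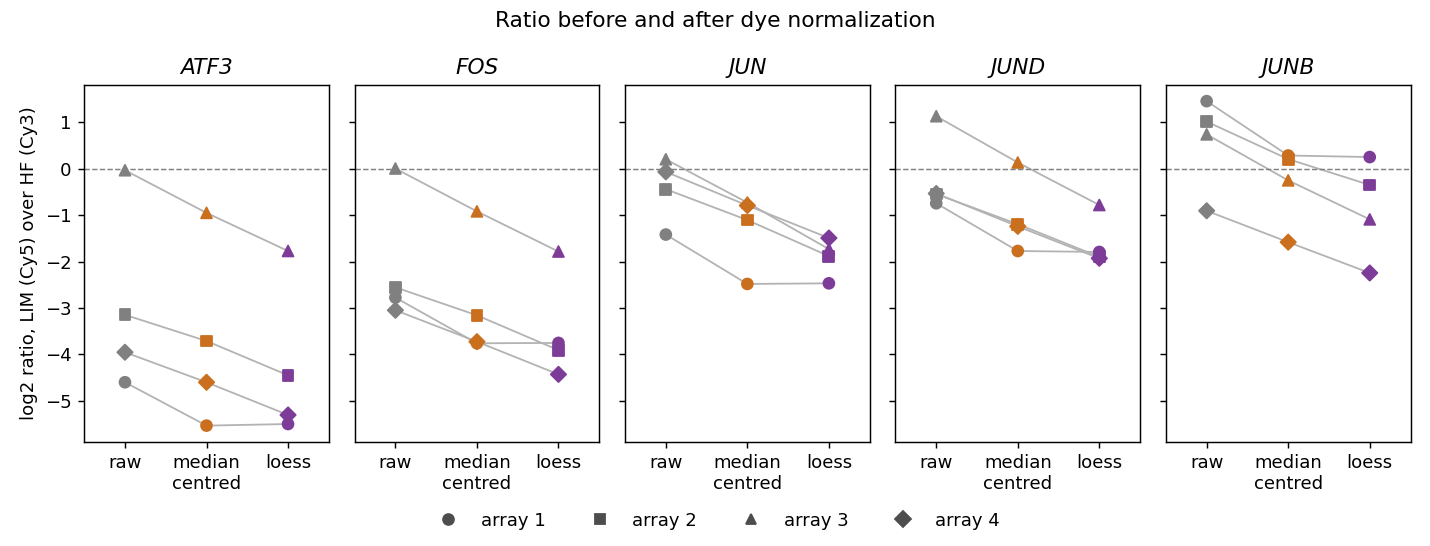
Log2 ratio of the LIM over the HF channel (vertical axis) per gene, from background-subtracted spot medians (raw, grey), after centring each array on its median (orange) and after loess (purple); symbols are the 4 arrays. ATF3 and FOS lie between -4.60 and -2.56 on arrays 1, 2 and 4 before correction and near 0 on array 3.

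Other genes were compared with each member by the root mean square difference of the 4 ratios, over the 6376 named genes. For JUN the nearest were RRAD, a small GTPase of muscle that limits calcium entry, at a difference of 0.33, TRIB1, a pseudokinase, at 0.37, and PTI at 0.42. For JUND they were SNAI2, a zinc finger repressor, at 0.34, ZBTB21 at 0.35 and TRIB1 at 0.38. FOS had no neighbour as close: LOC513055 lay at 1.19, MYC, a growth-promoting transcription factor, at 1.27 and KLF4, a zinc finger factor, at 1.36. ATF3 itself was nearer to FOS than any of these, at 1.01. For ATF3 the nearest outside the 5 genes included LOC513055 at 1.64 and PDK4, a kinase that inhibits pyruvate dehydrogenase, at 1.94. Among the members JUN and JUND were the nearest pair (0.62), and JUNB and ATF3 the farthest (3.86). These distances rest on the ratios by which the 5 genes were chosen, and nothing is read from them.

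JUNB had other neighbours. ID3, an inhibitor of basic helix-loop-helix factors, lay at 0.36 with ratios of 0.19, -0.23, -0.99 and -1.55 on arrays 1 to 4. SPI1, a transcription factor of myeloid cells, lay at 0.46, with 0.36, 0.066, -0.96 and -1.45, and IRF8, another myeloid factor, at 0.50, with 0.18, -0.14, -1.50 and -1.37. These genes share with JUNB values near or above 0 on arrays 1 and 2 and low values on arrays 3 and 4. This likeness follows from how they were picked, and nothing is read from it. The macrophage markers had list medians of 0.13, -0.09, -1.32 and -0.94 on the same arrays. Single markers ran from -0.66 (CD74) to 1.24 (LYZ) on array 1, and from -0.78 (C1QA) to 0.20 (LYZ) on array 2. Of 11 listed markers 6 were measured, each well above background in both dyes of every array: C1QA, CD74, AIF1, CD14, LYZ and CD68. None of the 6 passed the test, all had a mean below 0, and their summed signal ranged from 2595 to 4732 in the LIM channel and from 3952 to 10915 in the HF channel. CD163, CSF1R and MRC1 were not analysed here. The part of macrophages in the JUNB ratios was not tested.

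The genes around AP-1 were tested with limma, fitted to the ratios of 15855 probes with Benjamini-Hochberg adjustment, which called 470 probes higher and 398 lower in the LIM channel at an adjusted p under 0.05. Among the 6376 named genes, 2.78% were called higher and 3.15% lower, and their median log2 ratio was 0.0029. The number of calls was not stable: leaving out array 1, 2, 3 or 4 left 0, 0, 51 and 0 calls, with 3911, 3302, 3565 and 3184 probes at an unadjusted p under 0.05. An intensity trend with a robust prior called 0 probes, with 4099 at an unadjusted p under 0.05. Median centring called 3525 higher and 275 lower.

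Other factors with a basic leucine zipper were much nearer to 0 than FOS and ATF3. Because FOS and ATF3 were chosen by their ratios on these arrays, nothing is read from this contrast. Of 34 listed, 13 were measured, of which 1 was higher, 2 were lower and 10 did not pass, with a median ratio of -0.20. DDIT3 (CHOP), a stress-induced factor that pairs with C/EBP proteins, was lower (-0.68 ± 0.12, moderated SE, n = 4, adjusted p = 0.0441), and so was XBP1 (-0.42 ± 0.07, adjusted p = 0.0440), a factor of the unfolded protein response. XBP1 lost its call with processed signals, the series table and an offset of 10, and with median centring it was at 0.21 and the list median at 0.24. DDIT3 was at -0.34 with median centring and did not pass. ATF1, which binds cAMP response elements, was higher (0.53 ± 0.08, adjusted p = 0.0356), a call lost with processed signals and the series table. FOSB, the nearest relative of FOS among those measured, had ratios of -0.21, -0.16, -0.06 and -0.48 and did not pass (adjusted p = 0.173), and its other kept probe had a mean of -0.15. JDP2, a repressor that pairs with JUN proteins, had a mean of -0.47 (adjusted p = 0.0550) and -0.29 by its other probe. MAFF, a small MAF protein, had -1.16, -1.15, -0.0077 and -0.65 on arrays 1 to 4 (adjusted p = 0.104). FOSL2 was not above background on enough arrays, and FOSL1 and the BATF factors were not analysed here. FOSB, JDP2 and MAFF were named after their values were seen.

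None of the kinases that carry signals to AP-1 passed the test. Of 30 kinases of the MAP kinase cascades 16 were measured, with a median ratio of 0.025 and means from -0.32 to 0.50. With median centring the list median was 0.63. Those with the smallest unadjusted p were MAP2K4, a kinase that activates JNK, at 0.31 ± 0.08 (adjusted p = 0.0941) and MAPK7, also called ERK5, at -0.32 ± 0.10 (adjusted p = 0.126). With median centring MAP2K4 was at 0.89 and passed, and MAPK7 was at 0.21. The highest mean was that of MAP2K1, an activator of ERK, with 0.58, 1.13, 0.17 and 0.13 on the 4 arrays (adjusted p = 0.161). Of the serum response factor and its partners, which switch on FOS, 3 of 7 were measured (ELK3, ELK4 and MRTFB). None passed, and the median was 0.018. Serum response factor itself, ELK1, MRTFA and MYOCD were not analysed here. MRTFB, a coactivator of serum response factor, had 0.18 ± 0.09 (adjusted p = 0.260), and ELK4 was well above background in the HF channel on no array. Of 9 dual specificity phosphatases, which switch MAP kinases off, DUSP1 and DUSP10 were measured and neither passed. DUSP1, itself an immediate-early gene, was below 0 on all 4 arrays (-0.25, -0.96, -0.19 and -0.88, adjusted p = 0.104), and DUSP10 had -0.31 ± 0.28 (adjusted p = 0.530). Under median centring DUSP1 was at 0.075 and DUSP10 at 0.20.

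ATF3 is also a target of the integrated stress response, in which ATF4 is made when translation slows. Of 20 genes of this response 10 were measured, and ATF4 itself was not analysed here. DDIT3, also counted among the basic leucine zipper factors, was lower, 0 were higher and 9 did not pass. The median was -0.042 (0.14 with median centring). Of 23 genes with AP-1 sites in textbook accounts 15 were measured, 3 were lower, 0 higher and 12 did not pass, and the median was -0.093 (0.12 with median centring). EZR, the membrane linker ezrin, was lower (-0.80 ± 0.13, adjusted p = 0.0402), with -0.41 and no call under median centring. PTGS2, the inducible cyclooxygenase, was among the 3 lower genes, but its LIM channel was well above background on only 2 of 4 arrays, so its ratio is uncertain in size. It was -0.88 here, -1.28 without background correction, -1.56 with an offset of 10 and -3.11 with processed signals. Array 3 had the ratio nearest to 0 for DDIT3, ATF1 and EZR, as for FOS, ATF3 and JUND, but not for XBP1 or PTGS2. With any 1 array left out, none of the 5 genes named here as higher or lower kept its call (DDIT3, XBP1, ATF1, PTGS2 and EZR), while each kept its direction.

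**Figure D5:**
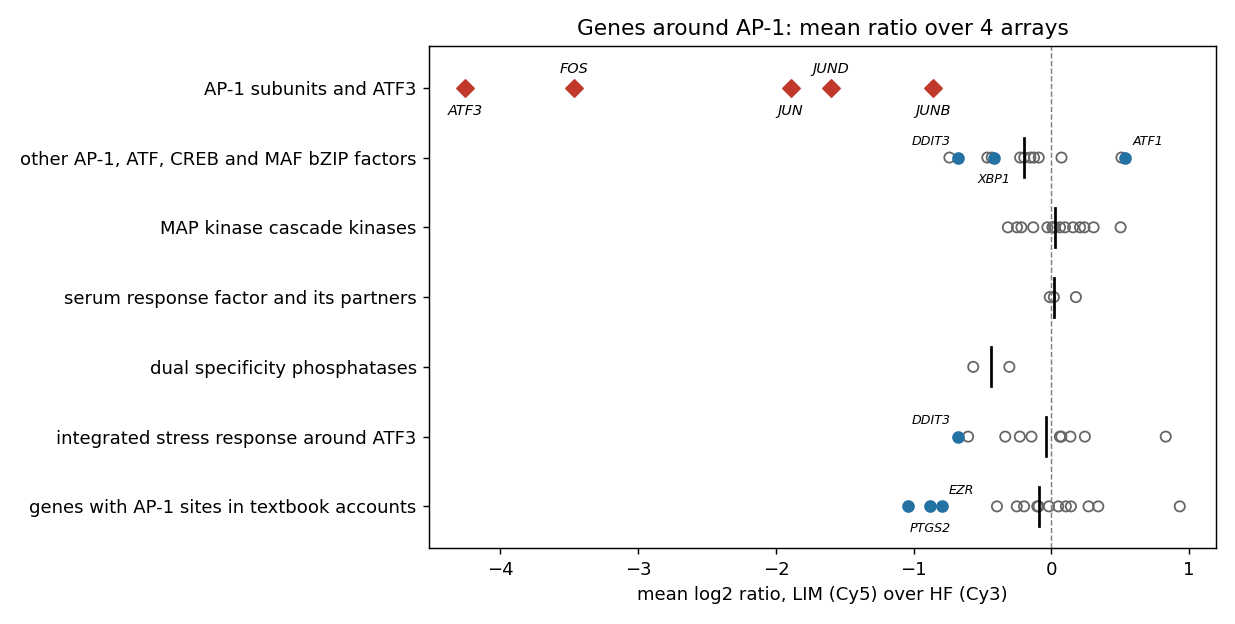
Mean log2 ratio over 4 arrays of the LIM over the HF channel (horizontal axis) for the 5 genes (red diamonds) and for the measured genes of 6 lists; filled circles passed the test (labelled where named in the text), open circles did not, and black bars are list medians. The list medians lie between -0.44 and 0.025. ATF3 lies at -4.26 and FOS at -3.47, and both were chosen by their ratios.

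Skeletal muscle markers were bright in both channels: 10 of 17 were measured, all well above background everywhere, with a median ratio of 0.016. The fast troponin TNNC2 (0.68) and the myoglobin gene MB (1.02) were higher, and 8 did not pass, with means from -1.06 (MYH7, the slow myosin heavy chain) to 0.55 (ACTA1, the skeletal actin). The endothelial, fibroblast, lymphocyte and erythrocyte lists held no gene past the test. Of 7 fibroblast markers measured, 3 had a mean below 0. Their means ran from -0.48 (PI16) to 1.14 (COL1A1) and 1.29 (COL1A2), with a median of 0.011. One gene each was lower among the smooth muscle (LMOD1), mast cell (TPSB2) and adipocyte (CFD) markers. CFD had a mean of -1.17, while the other adipocyte markers measured (PLIN1, LIPE, CIDEC and FABP4) lay between 0.26 and 0.64 without passing, and the median over the list was 0.30. The neutrophil and mast cell list had 5 of 9 markers measured, with medians between -0.71 and -0.52 on the 4 arrays, and summed signals of 1120 to 1426 in the LIM and 1405 to 2186 in the HF channel. Its part in the ratios of the 5 genes was not tested.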

How the data were processed

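Per the file headers the authors quantified the 4 arrays with Feature Extraction. The deposited files give intensity per dye as spot and background medians, not normalized, beside software-processed signals. The deposited log10 ratios (processed red over green) equal the series value table. Here backgrounds were corrected with normexp (offset 50), ratios normalized by loess within arrays with control spots at weight 0, and 5 to 10 non-uniform spots per array left out. The offset shrinks ratios of dim probes. A probe was kept if in 1 of the channels both its spots were well above background on 3 or more arrays (15855 of 21475). Levels per channel come after loess and Aquantile. A two-sided test of the mean ratio against 0 used limma 3.58.1 in R 4.3.3, checked on simulated data. Probe accessions were matched to RefSeq symbols (8297 probes, 7788 genes), with the brightest kept probe per gene. The array design names another build than the RefSeq table, so no coordinates are given. The members and lists were chosen with earlier results of these data known. The genes named were the 5 members; per list up to 4 past the test by size, or else the 2 of smallest unadjusted p; and the 3 nearest genes per member. Some genes that this rule names are not reported here. All arrays lay on 1 slide, and no RNA batch is given in the sources used here. The number of arrays limits the precision. Alternatives were other background corrections, median centring, processed signals, the series table, no filter, a trend, the methods' t-test, unpaired channels, the mean over a gene's probes, and omission of 1 array in turn.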

Additional observations from a re-analysis of the deposited data

Results flagged for a closer look

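Dixon's ratio, which compares the gap of the most distant array with the whole range, was computed for 33 values. It passed its critical value for 2 of them, where about 1.65 would pass by chance if all 33 were independent. Both belong to JUND on array 3 and come from the same spots, so they are not independent of each other. Its log2 ratio was -0.78 there and between -1.93 and -1.79 on the others (Dixon's ratio 0.881). Its level in the HF channel was 10.31 there and between 11.39 and 11.60 on the others (Dixon's ratio 0.838).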

How the results depend on the processing

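The mean ratios of all 5 members stayed below 0 under every alternative run. They moved by less than their SD between arrays, except for JUN (-1.28) and JUND (-1.02) with median centring. The number of probes called was 868, and it was 1336 with processed signals, 1347 with the series value table, 3800 with median centring, 0 with a robust prior and intensity trend (4099 at an unadjusted p under 0.05), 1479 by the methods' t-test with its unadjusted thresholds and 1 by that test after Benjamini-Hochberg adjustment (3469 unadjusted). Leaving out 1 array gave 0 to 51 calls. The ratio within an array already pairs the bulls, and the 8 channels fitted with no replicate block gave 1091 calls. The median of the other basic leucine zipper factors was -0.25 with processed signals or the series table, -0.24 with an offset of 10, 0.24 with median centring and -0.23 to -0.17 with 1 array left out. The median of the MAP kinase cascades was -0.0026 without background correction, 0.63 with median centring, and -0.00070 without array 2 to 0.048 without array 3. That of serum response factor and its partners was 0.17 with processed signals or the series table, -0.076 with median centring, and -0.0052 without array 2 to 0.072 without array 3. With median centring the medians of the phosphatases, the integrated stress response and the genes with AP-1 sites were 0.14, 0.14 and 0.12, and that of the stress response was -0.095 to 0.022 with 1 array left out. Single genes turned with median centring: XBP1 (0.21), MAPK7 (0.21), DUSP1 (0.075) and DUSP10 (0.20). ELK4 (-0.012) was at 0.011 without background correction, 0.17 with processed signals or the series table, and between -0.038 and 0.030 with 1 array left out. The cause of these changes was not tested.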
